A study of Mus musculus with 8 samples.

Results

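Very long genes are described here as protein-coding genes whose annotated span in the mouse GRCm38 assembly reaches at least 500 kb, leaving out Camta1 and the genes named Cdh, Pcdh, Kcn, Nrxn or Csmd. The RefSeq gene table held 21883 protein-coding genes on assembled chromosomes, of which 226 reached 500 kb, 16 were left out by name and 210 remained. The values come from CTCF chromatin immunoprecipitation sequencing of wild-type cortical neurons, dissociated from E16 embryos of Swiss-Webster mice and used at day 13 in culture. Control cultures had no treatment, and NMDA cultures received 50 µM NMDA, a glutamate receptor agonist, for 10 minutes and then spent 50 minutes in drug-free medium. Cells were fixed with 1% formaldehyde, and each condition had 2 ChIP and 2 input samples from biological replicates. Etoposide, which traps topoisomerase on DNA, is named in the growth protocol, but no sample is labelled as having received it. The authors deposited 1 list of CTCF regions per condition over both replicates, 33820 regions for control and 36193 for NMDA, of which 5 and 7 lay outside the assembled chromosomes. A difference between the lists therefore has no replicate check, the read depth behind each list is unknown, and the intervals below are 95% intervals that cover counting error only. Region lists hold no expression values, so the neuronal label could not be set against marker genes.

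CTCF, a DNA-binding protein with an array of zinc fingers, recognizes a long, GC-rich motif and, with the cohesin ring, anchors chromatin loops and domain borders. At promoters it can hold a gene's start close to distant enhancers, and inside genes it has been linked to transcript elongation and exon choice. The longest mammalian genes are mostly made of introns and are rich in neuronal products such as cell adhesion molecules, synaptic scaffolds, receptors and RNA-binding regulators, and several overlap the chromosome's common fragile sites.

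The very long genes covered 173.9 Mb, with a median length of 727 kb and quartiles of 571 and 969 kb. The longest was Dmd, which encodes the membrane-to-cytoskeleton linker dystrophin, at 2390.4 kb. A region was assigned to a gene when its summit, the authors' point of highest signal, lay in the gene's span. By this rule 1138 of the 33815 control regions on assembled chromosomes and 1207 of the 36186 NMDA regions lay in very long genes, 3.37% and 3.34% of each list. The density was 0.654 control regions per 100 kb, with an exact Poisson interval of 0.617 to 0.694, and 0.694 NMDA regions per 100 kb, with an interval of 0.655 to 0.734. The 21657 shorter genes, over 841 Mb, held 2.05 control and 2.18 NMDA regions per 100 kb. Regions were thus 0.320 times as dense in very long genes as in shorter ones in the control list (exact interval 0.301 to 0.339) and 0.318 times as dense in the NMDA list (0.2995 to 0.337).

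CTCF density was lower in each longer class of genes, and the very long genes continued that order. In the control list it was 4.16 regions per 100 kb in genes under 20 kb, 2.64 at 20 to 50 kb, 2.07 at 50 to 100 kb, 1.61 at 100 to 200 kb and 1.19 at 200 to 500 kb. The NMDA list gave 4.34, 2.86, 2.20, 1.75 and 1.27 for the same classes. The order was also present when only bases over 10 kb from both of a gene's own ends were counted. Inner promoters and the ends of other genes within the span were not left out of these bases. Control density there was 2.02 at 20 to 50 kb, 1.31 at 100 to 200 kb, 1.02 at 200 to 500 kb and 0.576 in very long genes, against 0.614 for the NMDA list in very long genes. This left a ratio to shorter genes of 0.425 in the control list and 0.416 in the NMDA list. The genes just inside the limit of 500 kb, Edil3, Dock1, Samd12, Stpg2 and Car10, had 0.198 to 0.994 control regions per 100 kb, and those just below it, Dnm3, Lrrc7, Cacna1e, Ank3 and Abca13, had 0.606 to 2.23.

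**Figure D1:**
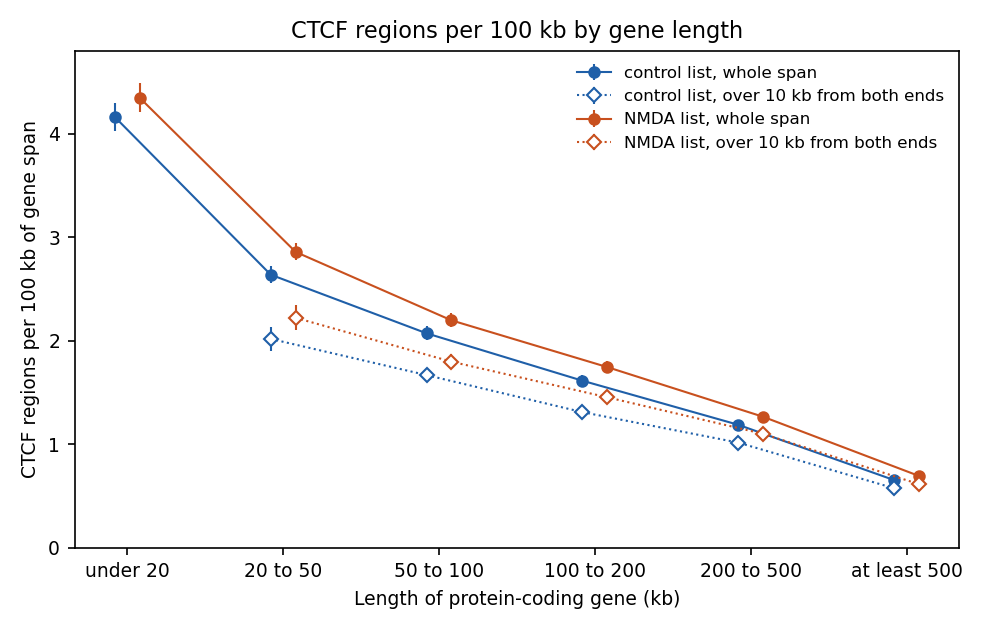
Regions per 100 kb of gene span (vertical axis) in 6 classes of gene length (horizontal axis, kb) for the control list and the NMDA list, over the whole span and over the bases more than 10 kb from both gene ends, with exact Poisson intervals. Density is lower in each longer class in both lists and reaches 0.654 and 0.694 in genes of at least 500 kb.

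A typical very long gene held few regions. The median was 5 regions per gene in both lists, with quartiles of 3 and 7.75 in the control list and 3 and 8 in the NMDA list, and the median density per gene was 0.627 per 100 kb in both. Neighbouring summits within a gene lay a median of 50.2 kb apart in the control list and 43.7 kb apart in the NMDA list. The longest stretch without a region of either list had a median length of 376 kb, a median of 47.8% of the gene. In 65 genes it reached 500 kb. The surroundings of the genes, taken as the 500 kb on each side without any part in another gene of at least 500 kb, were denser. Of the 210 genes, 144 (68.6%) had a lower control density than these surroundings, with medians of 0.627 inside and 0.9 outside. For the NMDA list 142 (67.6%) had a lower density. No such share was computed for shorter genes, so these counts are not shown to be particular to very long genes. The surroundings also take in 5′ summits just outside the span, such as those of B3galt1 and Zfp804b, which raises the outside density. The sparse neighbouring long genes left out would have lowered the outside density. Across the 210 genes, length and density had a Spearman rho of -0.24, given as a description. The 10 very long genes on the X chromosome were sparser still, with 0.234 control regions per 100 kb (0.148 to 0.350) against 0.680 on autosomes, and shorter X-linked genes were also sparser (0.904 against 2.10). The rate ratio on autosomes alone was 0.323 in the control list.

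Within very long genes, CTCF was concentrated at the ends, and its density was lower with each step inward in the control list. There were 19.05 control regions per 100 kb within 1 kb inside an end, 2.28 from 1 to 10 kb, 1.01 from 10 to 50 kb, 0.690 from 50 to 100 kb, 0.606 from 100 to 250 kb and 0.462 beyond 250 kb. The NMDA list gave 18.6, 2.41, 1.07, 0.676, 0.675 and 0.511. Each gene was counted singly here, so regions of overlapping genes enter more than once. Among them are those of the 3 protocadherin gene models named below. Without these models the control list gave 17.9, 2.25, 0.912, 0.623, 0.594 and 0.441. The NMDA list then gave 17.4, 2.39, 0.966, 0.623, 0.644 and 0.465. The ratios that follow include the models. Close to the ends, very long genes and genes of 200 to 500 kb could not be told apart: from 1 to 10 kb the ratio of their densities was 0.989 in the control list (0.770 to 1.26) and 1.04 in the NMDA list (0.814 to 1.32). Farther in they differed at equal distance. From 50 to 100 kb of the nearer end, very long genes had 0.633 times the control density of genes of 200 to 500 kb (0.527 to 0.756) and 0.567 times the NMDA density (0.472 to 0.677). From 100 to 250 kb the ratios were 0.725 (0.637 to 0.823) and 0.751 (0.665 to 0.849).

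**Figure D2:**
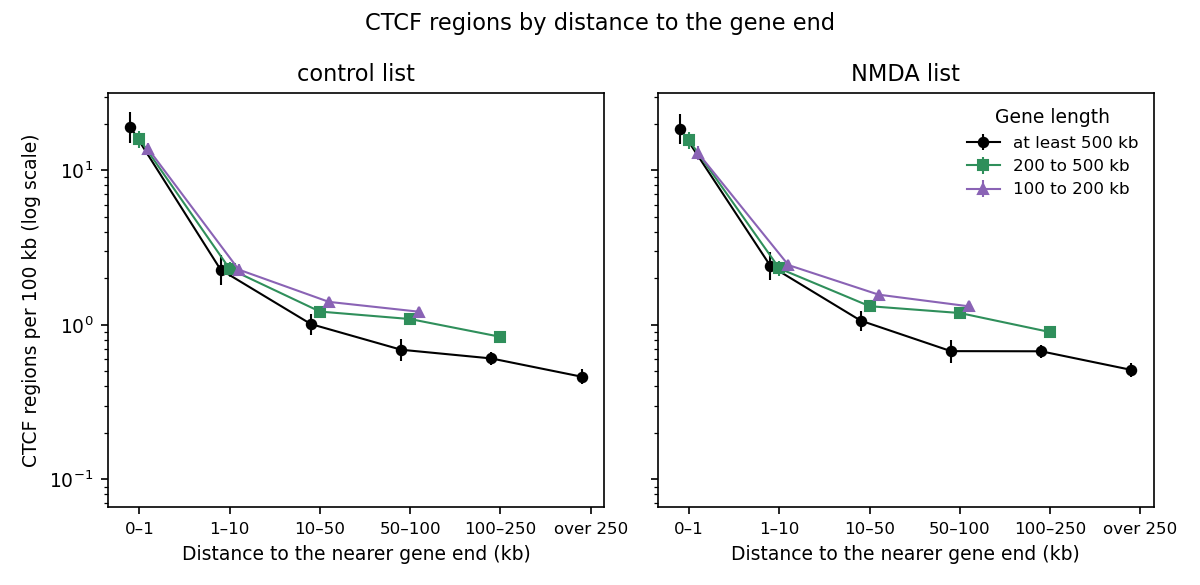
Regions per 100 kb (vertical axis, log scale) by distance to the nearer gene end (horizontal axis, kb) for the control list (left) and the NMDA list (right), in genes of at least 500 kb, 200 to 500 kb and 100 to 200 kb, with exact Poisson intervals. The 3 length classes lie close together from 1 to 10 kb, and the very long genes lie lowest from 10 kb inward. Each gene is counted singly, overlapping genes included.

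The promoter tables gave a strand for 169 of the 210 genes, and in these the 2 ends differed. A CTCF summit lay within 1 kb of the 5′ end, on either side of where transcription starts, in 76 genes in the control list (45.0%, Wilson interval 37.7 to 52.5) and in 74 in the NMDA list (43.8%, 36.5 to 51.3). At the 3′ end there were 3 genes in the control list and 2 in the NMDA list. All shorter genes with a strand had a 5′ summit in 24.1% (control) and 24.6% (NMDA), so very long genes stood 20.8 percentage points higher in the control list (Newcombe interval 13.5 to 28.4) and 19.2 points higher in the NMDA list (11.9 to 26.8). Against genes of 200 to 500 kb the difference was 1.43 points (-6.96 to 9.97) in the control list and 2.37 points (-5.97 to 10.9) in the NMDA list. At the 3′ end very long genes were below all shorter genes, by -4.84 points (-6.07 to -1.51) in the control list. Against genes of 200 to 500 kb the 3′ difference was -2.12 points (-4.38 to 1.44) in the control list. In the NMDA list it was -3.24 points (-5.44 to 0.0990), so at neither end could these 2 classes be told apart. Divided into 10 equal parts from the 5′ end, the genes had 19.9% of their control regions in the first part and 14.04% in the last, with 6.32% to 9.75% in each part between. Genes of 200 to 500 kb had 19.6% in the first part.

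Most CTCF regions in very long genes nevertheless lay over 1 kb from any gene end. Of the control regions, 85.4% lay more than 1 kb from every annotated gene end and promoter of the gene itself, as did 85.8% of the NMDA regions. Of the others, 76 control and 74 NMDA regions lay at an end of the very long gene, 38 and 34 at an inner promoter of it, and 28 and 36 at the end of another protein-coding gene inside it. In shorter genes 75.6% of control regions and 76.8% of NMDA regions lay over 1 kb from any gene end, against 88.3% and 88.2% in very long genes. This comparison depends on length, because the bases within 1 kb of an end are a smaller part of a longer gene. In very long genes, counted singly, they make up 0.42 Mb. It therefore does not show a trait of very long genes, whose density per base was highest at the ends. Regions were also somewhat narrower in very long genes than in all shorter genes. The medians were 1004 bp against 1154 bp for control regions and 1075 bp against 1178 bp for NMDA regions. Median width was lower in each longer class of genes in both lists, and genes of 200 to 500 kb had 1066.5 bp and 1108 bp.

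4 strong 5′ regions, chosen after their values were seen, show what CTCF-bound starts of very long genes look like in sequence. Strength is given as the authors' deposited −log10 p per region and as its percentile, the share of the same list with a lower value. In the strongest NMDA regions this value was the sum of the 2 replicates' −log10 p, as in Wwox (533 and 457 for 990.0). It is thus not the −log10 p of a single test there. The control list has no replicate values, so its make-up could not be checked. Sdk1, a synaptic adhesion molecule of the immunoglobulin superfamily, had a 5′ region at percentile 98.6 in the control list (−log10 p of 1163) and 99.6 in the NMDA list (902). Erc2, a scaffold of the presynaptic active zone, stood at 98.4 and 96.8, Ptprm, a receptor tyrosine phosphatase that binds its own kind on neighbouring cells, at 94.4 and 89.7, and Lsamp, a GPI-anchored neuronal adhesion protein, at 97.2 and 97.0. The RefSeq promoter windows (GRCm38.p6, 250 bases before to 50 after an annotated start) that hold these summits are printed 5′ to 3′ on the gene's strand. Capitals mark every match, on either strand, to AGNNGGCGC or to AGATGGC or AGAGGGC or AGGTGGC or AGGGGGC, which spell fragments of the CTCF core motif and were chosen with these sequences in view.
Sdk1, chr5:141241284-141241583, plus strand: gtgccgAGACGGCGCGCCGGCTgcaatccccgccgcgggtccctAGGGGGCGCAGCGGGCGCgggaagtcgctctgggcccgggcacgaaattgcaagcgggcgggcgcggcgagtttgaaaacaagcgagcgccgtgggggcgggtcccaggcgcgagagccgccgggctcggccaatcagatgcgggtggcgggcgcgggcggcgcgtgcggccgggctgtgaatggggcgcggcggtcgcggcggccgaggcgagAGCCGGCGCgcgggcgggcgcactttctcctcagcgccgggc
Erc2, chr14:27622157-27622456, plus strand: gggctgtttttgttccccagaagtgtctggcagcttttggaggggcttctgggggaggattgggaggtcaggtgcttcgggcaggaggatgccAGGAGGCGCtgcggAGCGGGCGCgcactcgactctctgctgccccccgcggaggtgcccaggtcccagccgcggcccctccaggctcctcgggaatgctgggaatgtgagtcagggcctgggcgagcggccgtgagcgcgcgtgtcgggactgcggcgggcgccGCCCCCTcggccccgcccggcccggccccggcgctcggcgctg
Ptprm, chr17:67354410-67354709, minus strand: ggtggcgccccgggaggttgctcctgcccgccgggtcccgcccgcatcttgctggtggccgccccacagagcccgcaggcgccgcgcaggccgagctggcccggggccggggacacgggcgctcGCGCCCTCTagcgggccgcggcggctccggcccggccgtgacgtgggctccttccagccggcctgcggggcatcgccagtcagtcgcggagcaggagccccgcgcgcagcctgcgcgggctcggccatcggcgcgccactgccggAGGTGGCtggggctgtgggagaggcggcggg
Lsamp, chr16:39984114-39984413, plus strand: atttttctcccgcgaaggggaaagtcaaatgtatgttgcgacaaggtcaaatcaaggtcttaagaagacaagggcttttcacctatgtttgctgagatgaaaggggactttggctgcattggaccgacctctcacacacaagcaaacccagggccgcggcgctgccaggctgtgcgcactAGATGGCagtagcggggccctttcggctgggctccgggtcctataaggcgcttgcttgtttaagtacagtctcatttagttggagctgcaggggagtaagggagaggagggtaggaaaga

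The windows of Sdk1, Erc2 and Ptprm are GC-rich (78.3%, 73.7% and 80.7% G or C), and that of Lsamp is at 53.0%. In Erc2 the NMDA summit lies at base 92 of the window and the control summit at base 98, and a match to AGNNGGCGC starts at base 94. In Ptprm a match to AGNNGGCGC starts at base 125 on the opposite strand and overlaps one to AGAGGGC at base 127, and the NMDA summit lies at base 142 and the control summit at base 82. Lsamp has a single match, AGATGGC from base 181, with both summits at base 173. Sdk1 has 5 matches to AGNNGGCGC, of which those starting at bases 7 and 14 overlap on opposite strands and that at base 45, which also holds AGGGGGC, is followed directly by the one at base 54, with the control summit at base 26 and the NMDA summit at base 35. A match is a description of the letters and not of a binding site.

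Over all windows, those with a summit were rich in G and C. Of 3 kinds of match, 1 was less frequent in those with an NMDA summit than in other promoters with one, on the basis of 3 of 24 windows. The 169 genes had 275 promoter windows, of which 32 held a control summit, 24 an NMDA summit and 21 both. The 35 windows with a summit in either list had a median of 69.7% G or C, against 54.8% in the 240 without. AGNNGGCGC matched in 9 of the 24 windows with an NMDA summit (37.5%, Wilson interval 21.2 to 57.3) and in 32.2% of the 1974 other promoter windows with an NMDA summit, a difference of 5.28 points (Newcombe interval -11.2 to 25.2). It matched in 7.23% of all 32851 promoter windows. At least 1 of the 4 shorter patterns, AGATGGC or AGAGGGC or AGGTGGC or AGGGGGC, matched in 11 of the 24 (45.8%) and in 56.6% of the other windows with a summit, a difference of -10.8 points (-28.8 to 8.47), against 27.6% of all windows. Neither difference was larger than counting error. A longer pattern, CCNNN directly followed by AGNNGGC, matched in 3 of the 24 (12.5%, Wilson interval 4.34 to 31.0) and in 34.9% of the others, a difference of -22.4 points (-30.8 to -3.73), against 8.61% of all windows. The longer pattern matched in 5 of the 32 windows with a control summit (15.6%), for which other promoters with a control summit were not compared. The intervals make no allowance for the comparison of 3 kinds of match. The patterns overlap one another, and the windows of 1 gene can overlap. The windows of Sdk1, Erc2, Ptprm and Lsamp, in view when AGNNGGCGC and the 4 shorter patterns were chosen, are among the 24. The shares and intervals for these patterns are therefore a description and not an independent test.

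The 5′ ends ranked differently in the 2 lists from the insides of the genes. At the 5′ ends there were 66 pairs of overlapping regions, and their median percentile was 50.0 in the control list and 40.6 in the NMDA list. In 46 of the 66 pairs (69.7%, Wilson interval 57.8 to 79.4) the NMDA percentile was the lower one, beside 38.1% of all 30221 shared pairs. Inside very long genes and over 1 kb from any coding gene's end, the NMDA percentile was lower in 385 of 917 shared pairs (42.0%), 27.7 points less often (Newcombe interval 15.4 to 37.96). Inside shorter genes the share was 34.4%, so very long genes stood 7.60 points higher there (4.33 to 10.9). The 5′ ends of genes of 200 to 500 kb gave 70.5%, a difference of -0.81 points (-14.01 to 10.8), and the 5′ ends of all shorter genes gave 58.8%, a difference of 10.9 points (-1.16 to 20.8). The paired regions at very long genes' 5′ ends had a median width of 1524 bp (control) and 1196 bp (NMDA), and those inside the genes 1019 and 1160.0 bp. Percentiles of lists of unequal length place a region within its own list and do not measure a change in binding.

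Single genes show both sorts of pair, and those named in this paragraph were chosen after their values were seen. Negr1, a GPI-anchored adhesion protein of the same family as Lsamp, had its 5′ region at percentile 38.6 in the control list and 2.30 in the NMDA list. Nell1, a secreted growth-factor-like glycoprotein, stood at 66.9 and 36.2, Lrrtm4, a postsynaptic leucine-rich repeat protein, at 52.9 and 25.5, and Ctnna2, the neuronal alpha-catenin, at 90.2 and 63.2. Rbfox1, a neuronal splicing regulator, had 48.7 and 21.8, and the nuclear receptor gene Rora 86.8 and 66.7. Car10, a carbonic anhydrase-related protein that binds neurexins, went the other way with 30.0 and 56.5, as did the adhesion molecule gene Dscam with 9.15 and 29.6. The 66 pairs above instead match each control region with its strongest overlapping NMDA region, so they can differ from these values by gene. Among those pairs, a difference of at least 20 percentile points occurred in 10 with the lower value in the NMDA list (15.2%). It occurred in 2 with the higher value there (3.03%). The shares were 9.22% and 0.922% at the 5′ ends of genes of 200 to 500 kb, and 2.06% and 5.15% of all shared pairs.

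**Figure D3:**
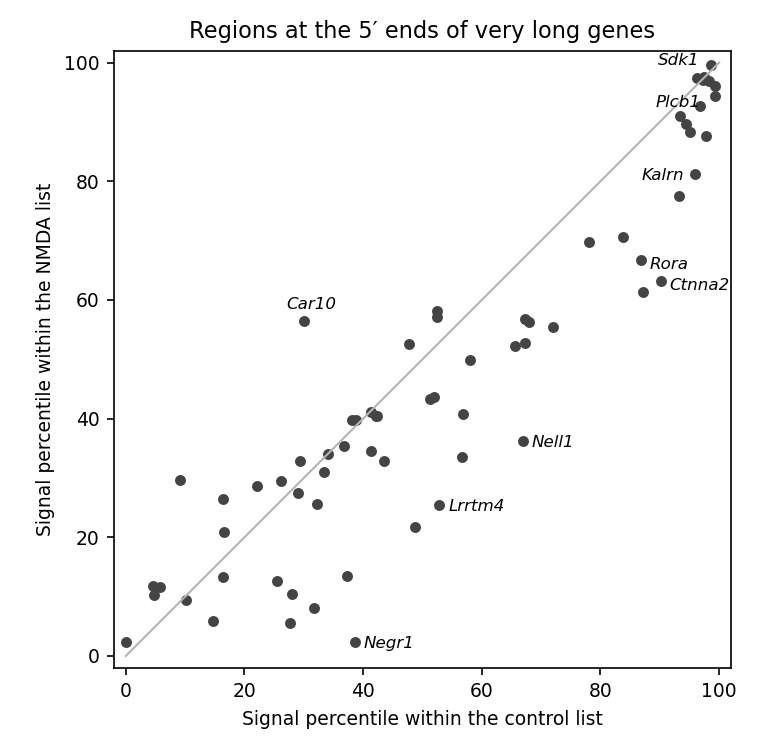
Percentile of the authors' −log10 p within the NMDA list (vertical axis) against that within the control list (horizontal axis) for the strongest region of each list at the 5′ end of a very long gene, 1 point per gene, with the line of equal percentiles. Of the 67 genes with a 5′ region in both lists, 47 lie below the line, Negr1, Lrrtm4 and Nell1 far below it, and Sdk1 is near the top in both lists.

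The genes were set against lists of gene names by role, drawn up for this report, which together hold 150 of the 210. Some placements are loose. Galntl6 is counted among receptors and channels, Hs6st3 among adhesion genes and Diaph2 among signalling genes, and Grip1 is in no list. The values thus describe these lists and not complete functional classes. The 28 scaffold and cytoskeletal genes had the densest CTCF, with a median over genes of 0.813 regions per 100 kb (mean of both lists), then 0.708 in 31 genes of signalling enzymes and growth factors, 0.662 in 19 transcription and RNA-binding regulators and 0.628 in 22 receptors and channels. The 50 adhesion and synapse-organizing genes had 0.487, and all 210 genes 0.634. The 19 genes known from common fragile sites, which cross the other lists, had 0.483 and a median length of 1375 kb. The quartiles of every list spanned the median of all genes, and the fragile-site list only just reached it, with quartiles of 0.270 and 0.634.

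Adhesion genes include 3 of the 4 longest. Ptprd, a presynaptic receptor tyrosine phosphatase (chr4:75941237-78211742), had 8 control and 9 NMDA regions, 0.352 and 0.396 per 100 kb. Cntnap2, which encodes the axonal adhesion protein Caspr2 (chr6:45060061-47301393), had 10 control and 7 NMDA regions. Its 3 control-only regions, at chr6:46866097-46867087, chr6:47255224-47255719 and chr6:47284567-47285314, lay 1807, 2195 and 2225 kb from the 5′ end, in the last part of the gene, at percentiles from 7.73 to 12.7. No NMDA-only region faced them. Lsamp (chr16:39984254-42181679) was denser at the same scale of length, with 16 control and 17 NMDA regions (0.728 and 0.774 per 100 kb) against 0.2 per 100 kb in its surroundings. Ptprn2 and Tenm2, a phosphatase-like protein of secretory vesicles and a teneurin adhesion receptor, each had 11 control and 13 NMDA regions. Ptprt, a homophilic receptor phosphatase, had 1 control region in 1139 kb, 1.92 kb from its 5′ end and at percentile 93.8, and the NMDA list had the overlapping region at percentile 97.3 and 2 NMDA-only regions.

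Scaffold and cytoskeletal genes held the densest named gene. Nav2, which encodes a microtubule-associated protein of axon growth (chr7:48959063-49610090), had 19 control and 22 NMDA regions in 651 kb, 2.92 (1.76 to 4.56) and 3.38 (2.12 to 5.12) per 100 kb. Both intervals include the 2.05 and 2.18 of shorter genes as a whole. It also had the most NMDA-only regions of any named gene, 5 of its 22, all between 299.7 and 525.2 kb from the 5′ end and at percentiles from 2.94 to 30.3. Of its 2 control-only regions, 1 was at chr7:49254985-49255637, beside the NMDA-only region at chr7:49258296-49259012. Ank2, or ankyrin-B, which ties membrane proteins to spectrin, had 13 regions in each list, and Anks1b, a protein of the postsynaptic density, 10 and 14. All 10 control regions of Anks1b were shared, and its 4 NMDA-only regions lay in the first 363 kb of a gene of 1100.4 kb. Pard3, a cell polarity scaffold, had 7 control and 10 NMDA regions, with 4 NMDA-only ones. Dmd (chrX:82814664-85205050) was sparse, with 3 control and 6 NMDA regions, 0.126 and 0.251 per 100 kb. All 3 control regions were shared, and the 3 NMDA-only regions lay 926, 973 and 1640 kb from the 5′ end. The one at 973 kb, chrX:83786978-83788242, was the strongest of them at percentile 48.9.

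Among receptors and channels, Asic2, an acid-sensing sodium channel, had 17 regions in each list and the fourth strongest control region with a summit inside a very long gene, at an inner promoter 816 kb from the 5′ end (−log10 p of 976). Dpp6, an auxiliary subunit of potassium channels, had 14 control and 16 NMDA regions, and Cacna1c, the pore of an L-type calcium channel, 9 and 9. Lrp1b, a large receptor of the LDL receptor family (chr2:40595290-42653598), held 1 region in each list across 2058 kb. That region, chr2:42652098-42653382 in the control list, sat at the gene's higher-coordinate end, so the stretch of 2058 kb without any region was the longest found. Tmem132d had 3 control and 7 NMDA regions, with 4 NMDA-only ones, and its strongest NMDA-only region stood at percentile 32.9.

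Signalling genes ranged from dense to nearly empty. Kalrn, a guanine nucleotide exchange factor of dendritic spines (chr16:33969073-34573277), had 17 regions in each list, 2.81 per 100 kb (1.64 to 4.505), of which 15 control regions were shared. Fhit, a diadenosine triphosphate hydrolase at a fragile site (chr14:9550092-11162061), had 1 region in each list in 1612 kb, 0.0620 per 100 kb (0.00157 to 0.346). That region lay 1440 kb from the 5′ end, with no region before it, at percentile 8.12 in the control list and 25.7 in the NMDA list. Wwox, a WW-domain oxidoreductase and also a fragile-site gene, had 8 control and 11 NMDA regions. Pde4d, a cyclic AMP phosphodiesterase, had 17 and 18. Rabgap1l, a Rab GTPase-activating protein, had 12 control and 9 NMDA regions, and 3 of the 12 were control-only.

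Among transcription and RNA-binding regulators, Rbms3 and Sox5 had many regions in 1 list alone. Rbms3, an RNA-binding protein gene (chr9:116572746-117629913), had 4 shared control regions of 8, and the 4 others were the most control-only regions of any named gene, at percentiles from 0.843 to 26.4. It also had 2 NMDA-only regions among 6, and 1 of these, chr9:116977365-116977839, lay next to the control-only region at chr9:116976515-116976989 without overlapping it. Sox5, a transcription factor of neuronal subtype choice in the cortex, had 4 NMDA-only regions among 8 and 1 control-only among 5. Rbfox1 (chr16:5884793-7412480) had 15 control and 14 NMDA regions with 12 shared. Rora had 13 and 14, with 13 shared, and Nfia, a nuclear factor I gene, 9 and 9, all shared.

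Outside the role lists, Atrnl1, an attractin-like membrane protein, had 11 control and 13 NMDA regions (2.11 and 2.49 per 100 kb). Thsd4, an extracellular matrix protein, had 11 and 13 (1.98 and 2.34), and Smyd3, a lysine methyltransferase, 12 in each list (2.12). Ccser1 had 6 control and 10 NMDA regions, and its 4 NMDA-only regions lay from 0.844 to 995.2 kb from the 5′ end. Naaladl2, a relative of glutamate carboxypeptidase (chr3:23798103-25144149), had 1 region in each list, at its higher-coordinate end and 1346 kb from the other. The 26 genes with at least 10 regions in both lists include the 3 gene models Gm37013, Gm38666 and Gm38667, which span the clustered protocadherins and are kept because their names do not match the rule. Over their joint 889 kb they held 27 control and 36 NMDA regions, and 13 of the 36 were NMDA-only (36.1%, Wilson interval 22.5 to 52.4). All totals here include them; without them the density was 0.642 control and 0.677 NMDA regions per 100 kb.

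**Figure D4:**
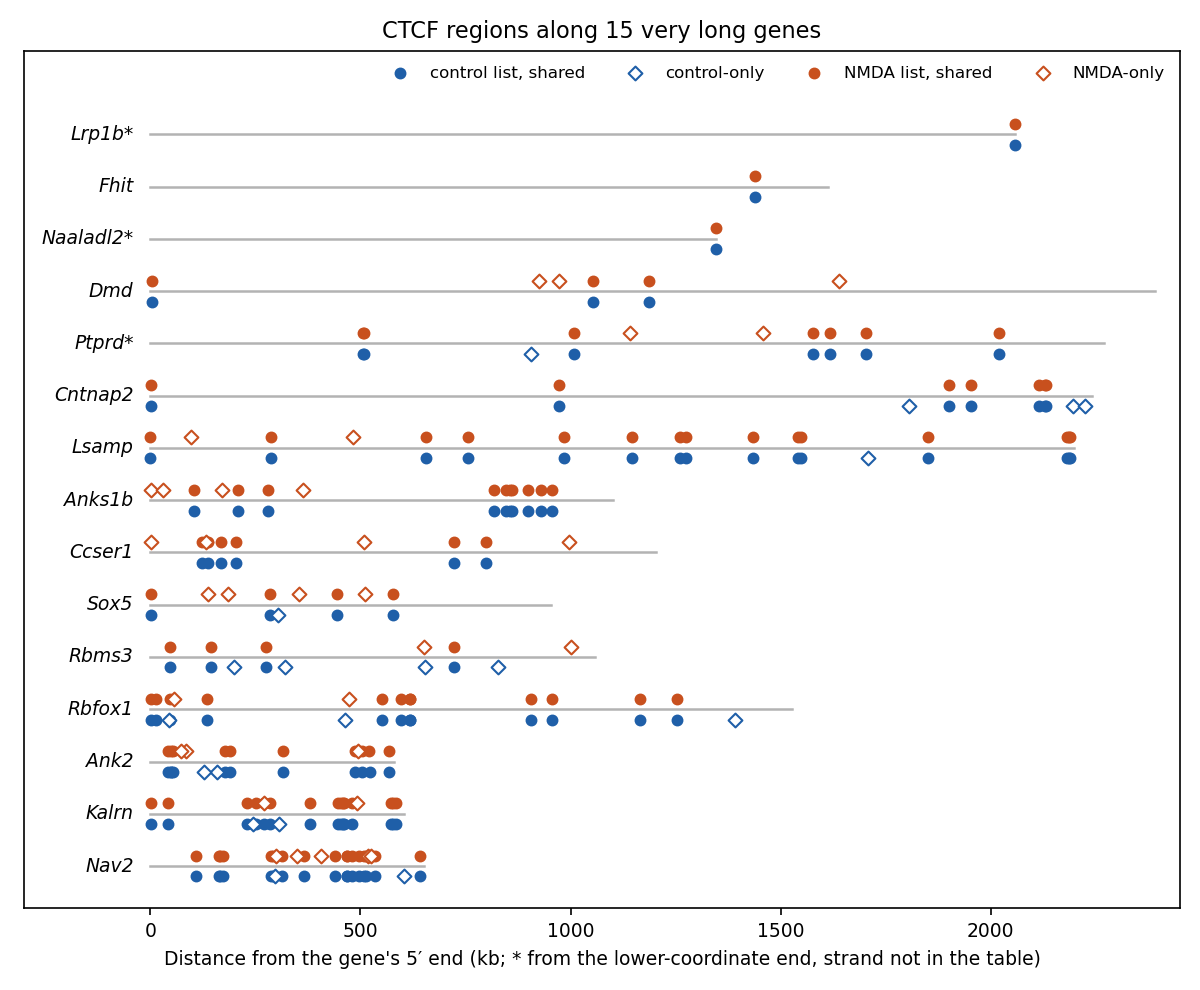
Summits of CTCF regions along 15 very long genes, by distance from the 5′ end (horizontal axis, kb), or from the lower-coordinate end for genes marked with an asterisk, control regions below and NMDA regions above each gene's line, filled where shared and open where in 1 list alone. Lrp1b, Fhit and Naaladl2 have 1 region per list, and Nav2 has 19 control and 22 NMDA regions in 651 kb.

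Of all very long genes, 8 held no region of either list. These were Adarb2, an adenosine deaminase family member expressed in brain, B3galt1, a galactosyltransferase, the carboxypeptidase gene Cpq, Dach2, a transcriptional cofactor, and Iqcm, Malrd1, Skint5 and Zfp804b. Of all coding genes, 51.6% held none, but most of those are short, and for a gene the length of Malrd1 (729 kb) a count of 0 allows up to 0.506 regions per 100 kb by the exact Poisson interval. The nearest regions were close in 2 of the 8: a control summit lay 0.409 kb outside the 5′ end of B3galt1 and 0.493 kb outside that of Zfp804b, both of which are among the genes with a 5′ region above. For Dach2, on the X chromosome, it was 393.7 kb away in both lists. Aff2 had a region in the control list alone and Diaph2, a formin, in the NMDA list alone, both on the X chromosome.

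The last comparison is between the lists: which regions of very long genes had no counterpart, by an overlap of at least 1 bp, in the other list. Of the 1207 NMDA regions, 191 were NMDA-only (15.8%, Wilson interval 13.9 to 17.99), beside 15.5% over the whole list. Of the 1138 control regions, 123 were control-only (10.8%, 9.13 to 12.7), beside 9.22% over the whole list. Set against regions in shorter genes, the NMDA-only share differed by -0.79 points (Newcombe interval -2.82 to 1.44) and the control-only share by 0.25 points (-1.49 to 2.24), so neither difference was larger than counting error. The direction for NMDA-only regions depended on the score: with regions of at least 830 on the authors' score of 540 to 1000 in both lists, it was 23.8% in very long genes and 18.5% in shorter genes, 5.32 points higher (2.70 to 8.14). Of the 236 such NMDA-only regions, 146 overlapped a control region of lower score. The share with no control region of any score was 9.07% (7.44 to 11.02) in very long genes and 7.07% (6.67 to 7.49) in shorter ones. With summits required to lie within 100 bp, the NMDA-only difference was -3.29 points and the control-only difference -2.87 points, both with intervals below 0.

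Regions in 1 list alone were weak ones. Of the 191 NMDA-only regions, 187 were in the lower 50% of their list by signal, and of the 123 control-only regions, 121. This is not particular to very long genes. Their NMDA-only regions had a median percentile of 15.6, against 11.1 in shorter genes, and their control-only regions 12.7 against 8.93. The NMDA-only regions had a median −log10 p of 31.3, against 97.6 for shared NMDA regions, and the control-only regions 55.9 against 168. The NMDA list also gives the authors' value in each replicate, without saying which is which: the second value was above the first in 161 of the 191 NMDA-only regions (84.3%), in 867 of the 1016 shared NMDA regions (85.3%) and in 79.4% of the whole list. By site, NMDA-only regions made up 15.9% of those away from gene ends, 8.11% of those at an end of the very long gene and 36.1% of those at the end of another coding gene (13 of 36, Wilson interval 22.5 to 52.4). All 13 of these lay in the protocadherin gene models, which held 30 of the 36, and none of the other 6 was NMDA-only, a number too small to limit the share below 50.0% (3 counts of 6).

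A few exceptions stood out by strength, chosen after their values were seen. The strongest NMDA-only region in a very long gene was in Lsamp, at chr16:40465516-40467116, 482.5 kb from the 5′ end, with a −log10 p of 164 (percentile 69.1). Its values in the 2 replicates were 30.3 and 134. Pde4d had the second strongest, at chr13:109735707-109737448, with 145 and replicate values of 34.3 and 111. Most of the signal of both regions thus came from 1 replicate. Of the control-only regions the strongest was in Il1rapl2, an X-linked relative of interleukin-1 receptor accessory protein, at chrX:137666773-137667624, with 173 (percentile 51.6), followed by Rabgap1l at chr1:160717551-160718552, with 170.2. Dpp6 had a control-only region at its 5′ end, chr5:26817100-26818070, at percentile 38.8. Replicate values were not in the control list.

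The strongest regions with a summit inside the span of a very long gene were shared. This leaves out 5′ regions whose summit lies just outside the span, such as that of Sdk1. In the control list they were at the 5′ end of Rgs6, a regulator of G protein signalling (−log10 p of 1372), at an end of Wwox (1301), 2.66 kb from an end of Nkain3, which encodes a sodium pump-interacting protein (1195), in Asic2 (976) and 3.12 kb from the 5′ end of the receptor phosphatase gene Ptprg (949.6). In the NMDA list they were at the same end of Wwox (990.0), in Slit3, an axon guidance ligand, 330.4 kb from its 5′ end (582), at the 5′ end of the transcription factor gene Sox6 (574), near the 5′ end of Ptprt (552) and at the 5′ end of Lsamp (537). The p-values of the 2 lists are not on a common scale, so levels are not compared between them. Of these 10 regions, 8 lay within 4 kb of a gene end.

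Counted per gene, most very long genes had similar numbers of regions in the 2 lists. An NMDA-only region occurred in 111 of the 210 genes and a control-only region in 92, beside 12.6% and 8.19% of all coding genes, most of which hold few regions. There were more NMDA than control regions in 85 genes, beside 11.6% of all genes, fewer in 47, beside 7.33%, and equal numbers in 78. In 153 genes the counts were within 1 of each other, and in 19 they were apart by 3 or more. No share over all genes was computed for these last counts, and genes with few regions can hardly differ by more. They are therefore a description only. The counts of the 2 lists had a Spearman rho of 0.93 across the 210 genes, which share their length between the lists. Within the role lists the NMDA-only share ran from 12.9% in signalling genes (interval 8.99 to 18.1) to 18.5% in scaffold genes (13.8 to 24.4), with intervals that overlap.

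**Figure D5:**
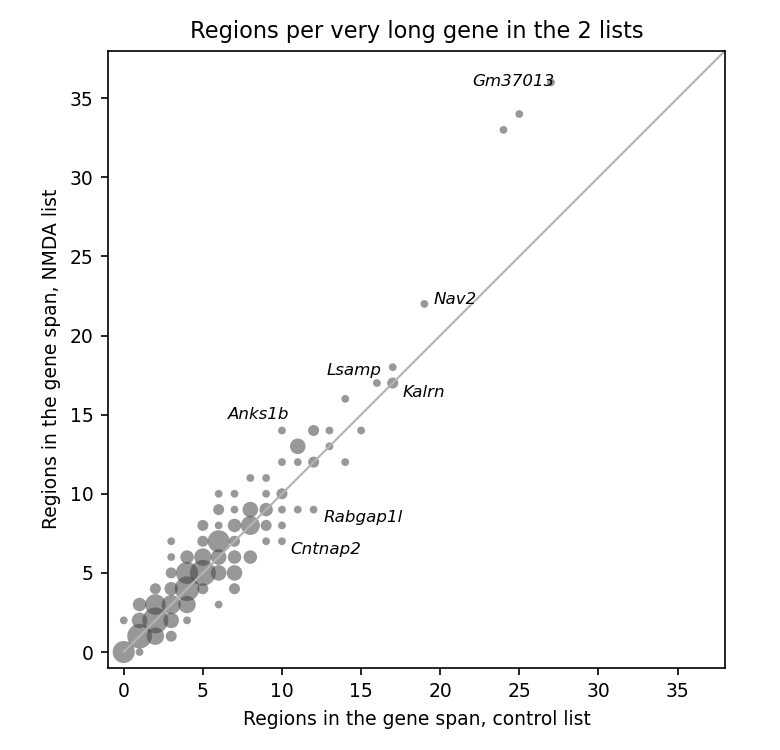
Number of NMDA regions (vertical axis) against control regions (horizontal axis) in the span of each of the 210 very long genes, with larger points where several genes coincide and a line of equal counts. Most genes lie within 1 region of the line, Cntnap2 and Rabgap1l lie below it and Nav2 and Anks1b above, and the 3 protocadherin gene models stand at the upper right.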

How the data were processed

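CTCF ChIP-seq of control and NMDA-treated mouse cortical neurons had 2 replicates per condition. The submitters' processing notes name the tools FastQC, Trimmomatic, BWA, SAMtools, MACS2 and the builds mm10 and GRCm38.p6, with no versions or settings. The authors deposited 1 region list per condition, with names that point to the irreproducible discovery rate (IDR) procedure, with a −log10 p-value, a score (lowest 540 in both lists) and a summit offset per region, as read from the columns of the files. The NMDA list also holds −log10 p per replicate, without naming the replicates, and in its strongest regions these add up to the region's value. No counts are in the lists, so depth is unknown.

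Genes, strands and promoter windows came from RefSeq tables for GRCm38.p6. Overlapping genes were merged before the densities of very long genes, shorter genes and length classes were computed. Densities by distance to a gene end, and their ratios, were counted gene by gene without merging. Rates carry exact Poisson intervals, rate ratios exact conditional binomial intervals, shares Wilson intervals and their differences Newcombe intervals, all at 95%. Shared regions overlap by at least 1 bp. The calculations ran in Python 3.11.15 with pandas 2.3.3, numpy 2.4.6, scipy 1.17.1 and matplotlib 3.10.9. They were tested on simulated data over the 21883 genes: for a true rate ratio of 0.3 the mean estimate over 100 runs was 0.299 and 98 intervals held the true value, and 100% of 7802 simulated regions were placed in their class. Those 7802 regions stood well apart and were moved by far less than their width. The class result was thus fixed by the design and does not cover split, abutting or displaced regions.

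Genes named were those with the 6 highest and 6 lowest densities, the 6 with the most NMDA-only and 4 with the most control-only regions, the 4 longest, the 3 with the longest empty stretch, those with the 5 strongest regions per list and up to 3 per role list, passing over unnamed gene models. Other names are marked where they occur or belong to a count or the length limit. The genes, lists and rules were chosen with earlier results of these data known. Input samples were not used here.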

Additional observations from a re-analysis of the deposited data

How the results depend on the processing

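The lower density of very long genes held its direction under every alternative tried, with ratios to shorter genes from 0.272 to 0.425 in the control list and 0.274 to 0.416 in the NMDA list. The density itself moved. With a limit of 400 kb it was 0.739 control and 0.790 NMDA regions per 100 kb, with 750 kb 0.558 and 0.598, over bases more than 10 kb from both ends 0.576 and 0.614, and with a score of at least 830 it was 0.475 and 0.570. Without regions within 1 kb of an end, the first of 10 equal parts of the gene held 15.1% of control and 14.2% of NMDA regions. The NMDA-only share was 13.3% with the NMDA list limited to the length of the control list, 20.4% with a reciprocal overlap of 50%, 23.8% with a score of at least 830 and 20.4% with summits within 100 bp. The control-only share under the same settings was 13.5%, 15.7%, 8.35% and 15.6%. The NMDA-only difference from shorter genes was 5.32 points with a score of at least 830 and -3.29 points with summits within 100 bp, and the control-only difference was -2.87 points with summits within 100 bp. The cause was not tested. Under the other settings, including weighting by signal and leaving out the 3 protocadherin gene models, which was chosen after seeing the data, as was the restriction to autosomes, the intervals of both differences included 0. No paired analysis was possible because each condition is 1 list over both replicates, and for the same reason no replicate could be left out. The depth behind the lists is unknown, and its part in the regions present in 1 list alone was not tested.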
